A study of Schizosaccharomyces pombe with 12 samples.

Results

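The long non-coding RNAs (lncRNAs) that fission yeast expresses most during growth were followed in wild-type cells and 3 deletion strains. They were chosen by their wild-type reads: every annotated locus whose systematic ID begins with SPNCRNA. and whose raw counts over the 3 wild-type libraries summed to 900 or more was taken. This gave 124 loci of the 6986 in the count table, and left 1399 other lncRNA loci below the threshold. All 124 had enough counts to be tested, and 122 could be matched to the RefSeq annotation of *S. pombe* genome build ASM294v3, from which every position below is taken. Just inside the threshold lay SPNCRNA.1002, SPNCRNA.1276 and SPNCRNA.1133 with 906, 913 and 915 wild-type counts, and just outside it SPNCRNA.1581, SPNCRNA.972 and SPNCRNA.130 with 898, 873 and 872.

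Fission yeast transcribes many lncRNAs with RNA polymerase II, among them antisense transcripts that run across coding genes, upstream transcripts that run toward the promoter of the next gene on the same strand, and divergent transcripts that leave a promoter in the other direction. Where such a transcript is cleaved, polyadenylated and terminated helps to set how much of it accumulates, and reading through a neighboring promoter can lower the output of that gene. The 3'-processing machinery that does this, the cleavage and polyadenylation factor, carries a module made of the protein phosphatase PP1 enzyme Dis2, the scaffold protein Ppn1 and the WD-repeat protein Swd22. Dis2 removes phosphates from the RNA polymerase II C-terminal domain and from elongation factors, and it also works outside this module, in mitosis for example.

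Poly(A)+ RNA was sequenced from h+ cells in log phase in YES medium, a rich medium, at 30°C. The 4 strains were wild-type (WT), *ppn1*Δ (ppn1∆::HygMX), *swd22*Δ (swd22::HygMX) and *dis2*Δ (dis2∆::NatMX), with 3 biological replicates of each and 12 libraries in all. Each genotype is represented by a single laboratory strain, so that a difference between genotypes and a difference between these strains cannot be told apart.

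The libraries held 17616688 to 23435936 counts on annotated loci. The deleted gene was lowest in its own strain in every library: *ppn1* had 97 to 124 normalized counts in *ppn1*Δ against 468 to 523 in wild-type, *swd22* 9.47 to 26 against 1499 to 1639, and *dis2* 710 to 871 against 11687 to 12922. Normalized counts are counts scaled with TMM factors to a library of 20755522 counts. Within a strain, the libraries varied beyond sampling noise, with a chi-square per degree of freedom of 5.38 to 23.6 over all loci and 3.48 to 8.88 over the 124 lncRNAs. The median coefficient of variation of the 124 lncRNAs was 6.05% in wild-type and 7.66%, 7.9% and 7.45% in the deletions, in the order above. SPNCRNA.1115 varied most in each deletion strain, by 50.7%, 53.5% and 26.0%. Since RNA from whole cultures was measured, fewer cells that express a transcript and less of it per cell cannot be told apart.

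A single transcript dominated the group. prl53 (SPNCRNA.53, chrI:4008054-4009905, minus strand) is a poly(A)-bearing RNA of 1852 nucleotides, and its first 333 bases are shared with the coding gene SPAC27E2.11c on the same strand. SPAC27E2.11c had 8.1, 4.77 and 3.25 normalized counts in the wild-type libraries. Reads in the shared bases fit both loci, and by default HTSeq counts such reads for neither. These counts therefore do not show how much of the gene was transcribed. prl53 had 82696, 75445 and 77139 normalized counts in the same libraries. prl53 thus took 48.0% to 50.1% of all counts of the 124 lncRNAs in wild-type, and its level per length was 2040 counts per kilobase and 1000000 counts of the library. The next highest level per length was 96.9, and the lowest of the 122 lncRNAs with an annotated length was 3.45. The wild-type counts behind these levels chose the 124 lncRNAs, so the levels are given as a description. The bases before the start of prl53 are shown because no other lncRNA came near this level; the stretch chrI:4009926-4010155 reads toward prl53 on the minus strand, ends 21 bases before its start where the exons of the coding gene begin, and has the letters ACGTCA in capitals, the reverse complement of TGACGT, the core that CREB-type factors such as Atf1 bind.
prl53, 250 to 21 bases before the start: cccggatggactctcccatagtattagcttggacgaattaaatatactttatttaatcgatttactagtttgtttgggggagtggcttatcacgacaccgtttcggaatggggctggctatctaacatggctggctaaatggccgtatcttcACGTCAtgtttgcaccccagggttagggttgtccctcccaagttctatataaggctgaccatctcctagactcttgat

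**Figure D1:**
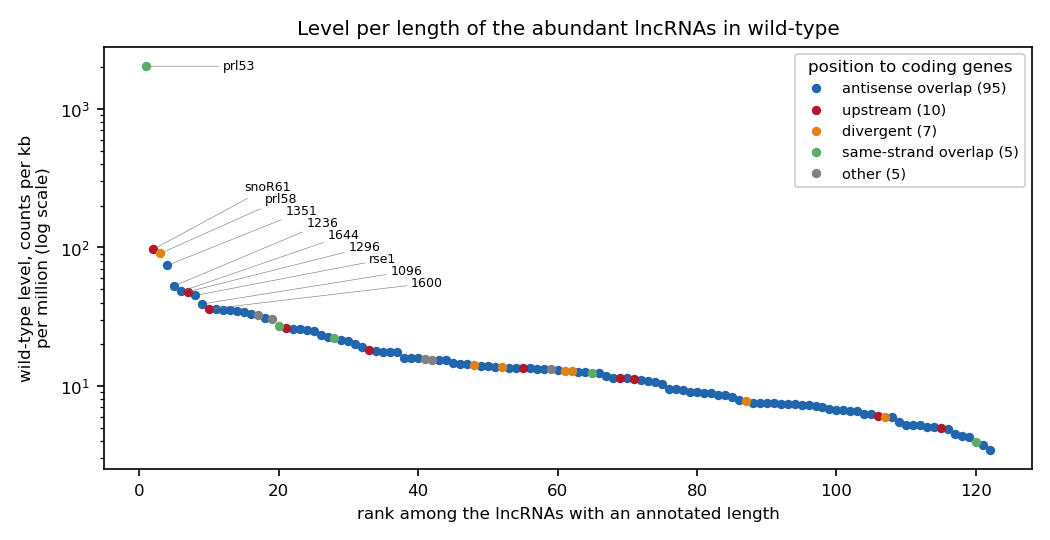
Wild-type level per length (counts per kilobase and 1000000 library counts, log scale) of the 122 lncRNAs with an annotated length, ordered by rank and colored by their position to coding genes. Each point is a lncRNA and the mean of 3 libraries. prl53 stands at 2040, the next lncRNA at 96.9 and the lowest at 3.45.

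Below prl53, the transcripts with the highest level per length were of different kinds. The snR61 locus (snoR61, SPNCRNA.445), which gives a box C/D small nucleolar RNA of the class that guides 2'-O-methylation of ribosomal RNA, stood at 96.9, and prl58 (SPNCRNA.58), a poly(A)-bearing RNA next to the inositol transporter gene *itr2*, at 90.5. SPNCRNA.1351, antisense to *mug2*, followed at 74.2, SPNCRNA.1236 at 52.8, SPNCRNA.1644, antisense to the meiotic kinase gene *spo4*, at 48.1, and SPNCRNA.1296 at 47.9. rse1 (SPNCRNA.111, chrII:3978331-3982106, minus strand), annotated as a lincRNA that represses in cis the gene of Ste11, the transcription factor for mating and meiosis, had the second-highest raw count of all, and its level per length was 45.0. The telomerase RNA ter1 (SPNCRNA.214) stood at 11.4. Of the 124, 92 had fewer than 2000 wild-type counts.

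Against the coding genes, the abundant lncRNAs were mostly antisense. Of the 122 with a position, 95 (77.9%) overlapped the exons of a coding gene on the other strand, against 57.5% of the 1300 other lncRNA loci with a position. An overlap of any size counted, and that of rse1 was 25 bases. Each lncRNA was placed in the first class that applied, in the order antisense overlap, same-strand overlap, upstream and divergent. By this order, 5 of the rest overlapped a gene on the same strand and 10 lay upstream of a gene on the same strand within 1000 bases. Another 7 were divergent within 1000 bases and 5 had none of these positions. The median length of the 122 was 2225 nucleotides against 990.5 for the other lncRNA loci, and in a choice by counts length and abundance are linked. A longer locus can meet an overlap of any size more easily, and the antisense shares were not adjusted for length. The median GC content was 36.0% against 34.9%. The letters TNAAAC, core of the motif that Mmi1 binds on meiotic transcripts marked for decay, occurred 1.74 times per kilobase on the transcript strand against 2.04. In the 300 bases from 250 before to 50 after the start, searched on both strands, TATAAA was found for 44.3% against 43.4%, CAGTCACA for 2.46% against 1.92%, and TGACGT for 12.3% (15 lncRNAs) against 7.23%. No test was applied to these shares.

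In 70 of the 95 antisense lncRNAs at least 50% of the length lay over exons of coding genes on the other strand, and in 33 pairs the lncRNA covered the gene wholly. The sources used here do not give the strand setting of the counting. HTSeq by default gives no count to a read that fits several loci, and 4 lncRNAs whose whole length lies over such exons in ASM294v3 still had 186 to 792 raw counts per library. Per length, the lncRNA was higher than the gene in wild-type in 55 of the 95 pairs. Meiotic names or products (mug, meu, mde, mcp, spo, mei and rec genes, *dmc1*, which was listed singly, or words for meiosis, spores and the synaptonemal complex) were found for 15 of the 95 overlapped genes (15.8%), against 188 of 5107 coding loci (3.68%). In 14 of these 15 pairs the lncRNA was the higher of the pair per length. The lncRNAs were chosen on wild-type counts and the genes were not, which favors the lncRNA in such pairs. The levels within pairs are therefore given as a description. Among these 15 pairs the largest ratio of the levels per length was at *spo4*, which SPNCRNA.1644 covers wholly. The lncRNA had 2731, 2681 and 2606 normalized counts in wild-type and *spo4* 2.03, 0.953 and 3.25. At *dmc1*, which encodes the meiotic strand-exchange recombinase, SPNCRNA.904 stood at 35.1 counts per kilobase and 1000000 and the gene at 0.186. At *hop1*, which encodes a protein of the meiotic chromosome axis, SPNCRNA.1602 stood at 34.5 and the gene at 0.635. At these loci nearly all reads of growing cells were assigned to the antisense transcript.

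Each deletion and wild-type were compared over all 6110 loci with enough counts by the quasi-likelihood test of edgeR, and p-values were Benjamini-Hochberg adjusted over all of them. A locus was called higher or lower at an adjusted p of 0.05 or below, and past 2-fold if it also changed at least 2-fold and its mean reached 100 normalized counts in 1 of the strains. Where 3 values follow each other without a strain name, they belong to *ppn1*Δ, then *swd22*Δ, then *dis2*Δ. In *ppn1*Δ, 28 of the 124 lncRNAs (22.6%) were higher, where 24.3% of all loci tested were, and 47 (37.9%) were lower, where 25.2% were. In *swd22*Δ, 23 (18.5%) were higher against 19.3% of all loci, and 46 (37.1%) were lower against 20.6%. In *dis2*Δ, 26 (21.0%) were higher against 19.3%, and 43 (34.7%) were lower against 21.8%. Past 2-fold, 2 lncRNAs were higher in *ppn1*Δ (background 1.67%) and 9 lower (1.78%), 1 was higher in *swd22*Δ (1.54%) and 11 lower (1.72%), and 2 were higher in *dis2*Δ (1.7%) and 8 lower (1.01%). The 3 comparisons share the wild-type libraries, which also chose the members.

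The excess of lower calls over the background changed with how the lncRNAs were chosen and is given as a description. When lncRNAs were instead chosen on 3600 or more counts summed over all 12 libraries, this gave 130 loci, of which 107 were the same. The balance then turned: 36.2% were higher and 23.8% lower in *ppn1*Δ, 32.3% and 23.8% in *swd22*Δ, and 34.6% and 25.4% in *dis2*Δ. Most of the 12 libraries are from deletion strains, so this choice can favor lncRNAs that are higher in a deletion. Choosing by wild-type counts can favor those that are lower, and neither choice is free of the strains compared. Over all 1045 lncRNA loci tested, 31.3% were higher and 19.9% lower in *ppn1*Δ, 25.3% and 22.2% in *swd22*Δ, and 24.4% and 20.6% in *dis2*Δ. Over the 124 lncRNAs the median log2 fold changes were -0.06, -0.102 and -0.105, against 0.008, -0.002 and 0.002 over all loci. In the fit 113, 112 and 114 of the 124 changed less than 2-fold, and 50, 53 and 50 lay within 0.25 of wild-type on the log2 scale.

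**Figure D2:**
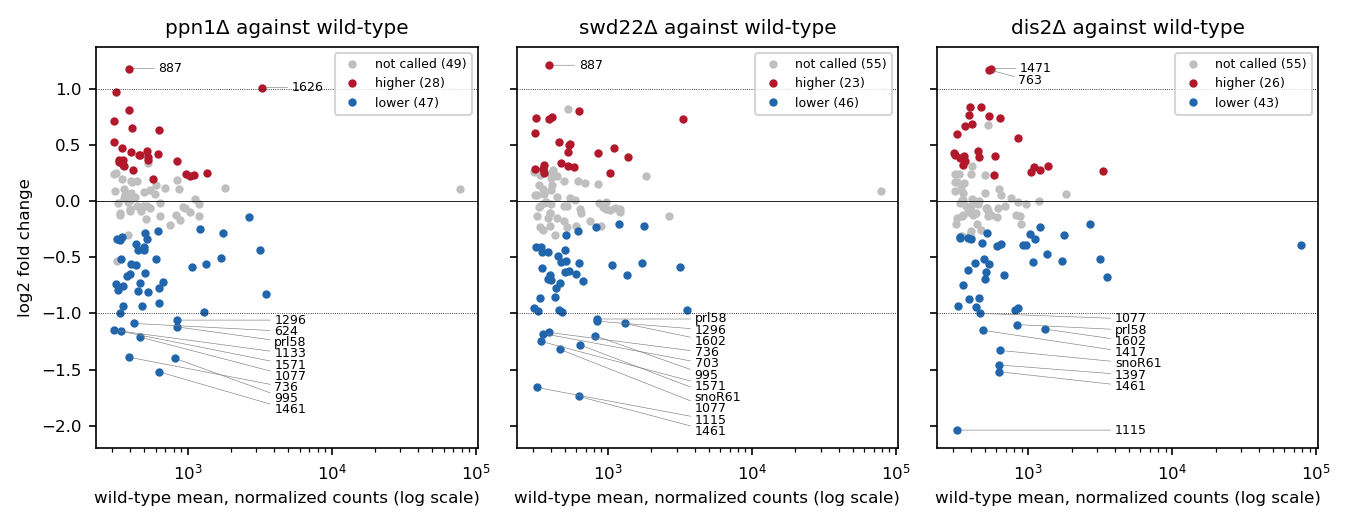
Log2 fold change of each of the 124 lncRNAs in every deletion against wild-type, by its wild-type mean in normalized counts (log scale). Points are single lncRNAs, red where higher and blue where lower at an adjusted p of 0.05 or below; those past 2-fold are named, and dotted lines mark 2-fold. Of the lncRNAs past 2-fold, 2, 1 and 2 lie above and 9, 11 and 8 below.

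The calls were also counted by position. These groups are small, no difference between them was tested, and their counts stand beside 24.3%, 19.3% and 19.3% higher and 25.2%, 20.6% and 21.8% lower over all loci, and 37.9%, 37.1% and 34.7% lower over the 124, which were chosen on wild-type counts. Antisense lncRNAs were called in both directions: 27 were higher and 31 lower in *ppn1*Δ, 23 and 29 in *swd22*Δ, and 22 and 30 in *dis2*Δ. Among the 10 placed as upstream, which overlap no exon of a coding gene, 0 were higher and 6 lower in *ppn1*Δ, 0 and 5 in *swd22*Δ, and 1 and 5 in *dis2*Δ. Antisense lncRNAs that end within 1000 bases of the next gene on the same strand are not among them. Of those, SPNCRNA.763, SPNCRNA.1645 and SPNCRNA.712 were higher in every deletion, and SPNCRNA.1461, SPNCRNA.1397 and SPNCRNA.1469 were lower in every deletion. Of the 5 placed by same-strand overlap, 0 were higher in any deletion, and 3, 4 and 4 were lower. Some lncRNAs placed as antisense share bases with a gene on the same strand too. Of these, SPNCRNA.609 (66 bases) was higher in *ppn1*Δ and *swd22*Δ (0.65 and 0.75). SPNCRNA.614 (30 bases) was lower in both (-0.64 and -0.53). Of the 7 placed as divergent, which met none of the earlier classes, 1, 0 and 2 were higher and 3, 4 and 1 lower. The annotation calls 19 of the 124 a possible alternative UTR of a neighboring gene, of which 3, 2 and 1 were higher and 10, 10 and 6 lower.

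SPNCRNA.1461 (chrII:1756425-1757286, plus strand) lies antisense to 66.1% of *pfd1*, which encodes a subunit of the tubulin and actin chaperone prefoldin. It had 677, 612 and 601 normalized counts in wild-type. *ppn1*Δ cells had 179, 244 and 235, *swd22*Δ cells 244, 172 and 149, and *dis2*Δ cells 229, 195 and 236. All 9 deletion libraries lay below all 3 of wild-type. Its log2 fold changes were -1.52 ± 0.15 (SE), -1.74 ± 0.15 and -1.52 ± 0.15 (adjusted p = 1.6e-07, 5.5e-08 and 2.6e-07, edgeR). *pfd1* itself had 0.12, -0.10 and -0.09 and was not called in any of the deletions.

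SPNCRNA.995 (chrI:4531036-4532486, minus strand) runs on the same strand into SPAC27D7.11c, a gene of the But2 family, with which it shares 31 bases. The annotation calls this lncRNA a possible alternative UTR. Its wild-type libraries had 793, 723 and 928 normalized counts, against 295, 373 and 262 for *ppn1*Δ, 375, 367 and 317 for *swd22*Δ, and 466, 457 and 322 for *dis2*Δ. The wild-type libraries lay above all others, and the log2 fold changes were -1.40 ± 0.15, -1.20 ± 0.15 and -0.97 ± 0.14. The gene downstream moved the other way. SPAC27D7.11c had 5495 to 5881 normalized counts in wild-type and 7648 to 11008, 9010 to 14377 and 16391 to 16541 in the deletions, which gave log2 fold changes of 0.76 ± 0.18, 1.14 ± 0.18 and 1.53 ± 0.18 with adjusted p = 0.0052, 0.0006 and 9e-05 (edgeR). Both transcripts had their highest mean among the deletions in *dis2*Δ. Between *dis2*Δ and *ppn1*Δ the lncRNA differed by 0.43 ± 0.15 (adjusted p = 0.039) and the gene by 0.77 ± 0.18 (adjusted p = 0.0086).

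prl58 (chrI:1393082-1393528, minus strand, 447 nucleotides) and *itr2*, which encodes a plasma membrane myo-inositol transporter, start 76 bases apart and run away from each other. The whole gap, chrI:1393529-1393604, is shown on the strand of prl58, reading toward its start, since it is all the sequence that separates the annotated starts; capitals mark its TATATA letters, which 27.0% of the 122 lncRNAs and 25.5% of the other lncRNA loci have in the 300 bases around their start.
prl58 and itr2, gap between the starts: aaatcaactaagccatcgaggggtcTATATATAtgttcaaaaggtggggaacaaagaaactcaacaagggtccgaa

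prl58 had 799, 824 and 896 normalized counts in the wild-type libraries. Those of *ppn1*Δ had 341, 387 and 427, those of *swd22*Δ 484, 451 and 283, and those of *dis2*Δ 463, 297 and 414. It fell in each deletion, with log2 fold changes of -1.12, -1.05 and -1.10 (SE 0.175 each; adjusted p = 9.3e-05, 0.00023 and 0.00016, edgeR). *itr2* fell with it, from 13469 to 14266 normalized counts in wild-type to 6907 to 7129, 8232 to 8571 and 8565 to 9995. Its log2 fold changes were -0.97, -0.72 and -0.54, all called. Of the 2 transcripts, *itr2* differed between *dis2*Δ and *ppn1*Δ, by 0.43 ± 0.06 (adjusted p = 4e-05), whereas prl58 had a difference of 0.03 ± 0.18, which was not called.

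The snR61 locus (SPNCRNA.445, chrII:3874254-3874906, minus strand) has 2 exons. Its second exon, chrII:3874254-3874461, is shown because this short locus had the highest level per length below prl53; capitals mark TGATGA and the CTGA letters on the transcript strand, the letters of box C and box D. TGATGA followed by CTGA was found in the last 208 bases of 0.82% of the 122 lncRNAs (this locus alone) and of 1.59% of the other lncRNA loci of that length or more.
snR61 locus, second exon: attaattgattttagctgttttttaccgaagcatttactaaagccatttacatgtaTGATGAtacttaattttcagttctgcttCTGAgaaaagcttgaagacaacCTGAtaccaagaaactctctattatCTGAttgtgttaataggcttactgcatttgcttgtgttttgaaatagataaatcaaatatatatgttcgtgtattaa

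The locus had 712, 621 and 579 normalized counts in wild-type. *ppn1*Δ cells had 274, 362 and 380, *swd22*Δ cells 343, 205 and 238, and *dis2*Δ cells 251, 214 and 294. These groups did not overlap with wild-type. The log2 fold changes were -0.91 ± 0.17, -1.28 ± 0.17 and -1.33 ± 0.17 (adjusted p = 0.00025, 1.4e-05 and 1e-05, edgeR), and *dis2*Δ against *ppn1*Δ had -0.42 ± 0.17, which was not called. The libraries were made from poly(A)+ RNA, and mature box C/D RNAs carry no poly(A) tail. Of its 51-base words, 81.6% occur at a single place in the genome.

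rse1 fell in every deletion. It had 3497, 3263 and 3818 normalized counts in wild-type, against 1928, 2062 and 1962 for *ppn1*Δ, 1703, 1923 and 1762 for *swd22*Δ, and 2415, 2129 and 2068 for *dis2*Δ, with log2 fold changes of -0.83 ± 0.07, -0.97 ± 0.07 and -0.68 ± 0.07 (adjusted p = 1.8e-08, 2.9e-09 and 3.6e-07, edgeR). The deletion libraries lay below the wild-type libraries without overlap, and *dis2*Δ was higher than *swd22*Δ by 0.30 ± 0.07 (adjusted p = 0.0067). *ste11*, which starts 1269 bases away and runs the other way, fell as well, from 4088 to 5668 normalized counts in wild-type to 752 to 846, 870 to 1051 and 1116 to 1707, with log2 fold changes of -2.59 ± 0.16, -2.32 ± 0.16 and -1.76 ± 0.16. The lncRNA and the gene it is annotated to repress thus both went down. ter1, the telomerase RNA, had 330, 300 and 335 normalized counts in wild-type and 263, 247 and 253 in *ppn1*Δ, which was lower by -0.34 ± 0.10 (adjusted p = 0.0096). In *swd22*Δ and *dis2*Δ ter1 had -0.13 ± 0.10 and -0.15 ± 0.10, which were not called.

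Other falls past 2-fold were of lncRNAs beside genes of unlike roles. SPNCRNA.736, which overlaps 9.62% of *fin1*, a gene for a NIMA-like mitotic kinase, had 358 to 446 normalized counts in wild-type and 134 to 162, 158 to 199 and 206 to 224 in the deletions, with log2 fold changes of -1.39, -1.17 and -0.87. SPNCRNA.1077, which covers 79.7% of *met8*, a gene for siroheme synthase, had 435 to 502 in wild-type and 183 to 224, 177 to 195 and 204 to 263 in the deletions, with -1.21, -1.32 and -1.0. SPNCRNA.1296, on the same strand upstream of SPCC569.06, had 813 to 878 in wild-type and 368 to 429, 323 to 454 and 359 to 501, with -1.06, -1.07 and -0.95. All of these falls were called, and in each the 3 wild-type libraries lay above the 9 others. SPNCRNA.1602, antisense to 94.3% of *hop1*, had 1211 to 1442 in wild-type and 533 to 814, 432 to 750 and 459 to 658 in the deletions, with -0.99, -1.09 and -1.14. *hop1* was at 15 to 41 normalized counts in all libraries, and its log2 fold changes of 0.51, -0.05 and -0.02 were not called. SPNCRNA.703, which overlaps 4.56% of *slp1*, a gene for an activator of the anaphase-promoting complex, had -0.93, -1.18 and -0.75, and *slp1* had -0.46, -0.53 and -0.19, all called.

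The lncRNAs that rose past 2-fold were fewer. SPNCRNA.887 (chrI:3117041-3119298, plus strand) covers 92.7% of *slx4*, a gene for a subunit of a structure-specific endonuclease. The lncRNA had 362, 380 and 434 normalized counts in wild-type. The deletions had 873, 927 and 860 (*ppn1*Δ), 878, 977 and 861 (*swd22*Δ) and 708, 657 and 735 (*dis2*Δ). All deletion libraries lay above all wild-type libraries, with log2 fold changes of 1.18 ± 0.09, 1.21 ± 0.09 and 0.84 ± 0.09 (adjusted p = 5.3e-09, 4e-09 and 7.4e-07, edgeR). *slx4* went down, from 140 to 214 normalized counts in wild-type to 88 to 95, 59 to 67 and 82 to 115, with log2 fold changes of -0.88 ± 0.17, -1.42 ± 0.18 and -0.72 ± 0.17. In each deletion the lncRNA gained more normalized counts than the gene lost.

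SPNCRNA.1626 (chrII:3626024-3631136, minus strand), which covers all of *mbx2*, a gene for a MADS-box transcription factor, is the most abundant of those that rose past 2-fold. It had 2977, 3614 and 3297 normalized counts in wild-type. *ppn1*Δ cells had 6668, 7031 and 6215, *swd22*Δ cells 6302, 4990 and 5118, and *dis2*Δ cells 4115, 3921 and 3889, all above wild-type. Its log2 fold changes were 1.01 ± 0.08, 0.73 ± 0.08 and 0.27 ± 0.08 (adjusted p = 3.5e-08, 2.4e-06 and 0.016, edgeR), and *dis2*Δ was below *ppn1*Δ by -0.74 ± 0.08 (adjusted p = 3e-06). *mbx2* was at 326 to 424 normalized counts in all libraries, and its 0.20, 0.27 and 0.08 were called in *swd22*Δ alone. SPNCRNA.1027, antisense to 95.1% of *fmp40*, a gene for a protein adenylyltransferase, rose by 0.97, 0.74 and 0.60, with *fmp40* at -0.95, -0.69 and -0.28, all called. SPNCRNA.712 (antisense to *cwf19*) rose by 0.63, 0.80 and 0.74 and SPNCRNA.1447 (antisense to the septation gene *uds1*) by 0.81, 0.73 and 0.77, all called.

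**Figure D3:**
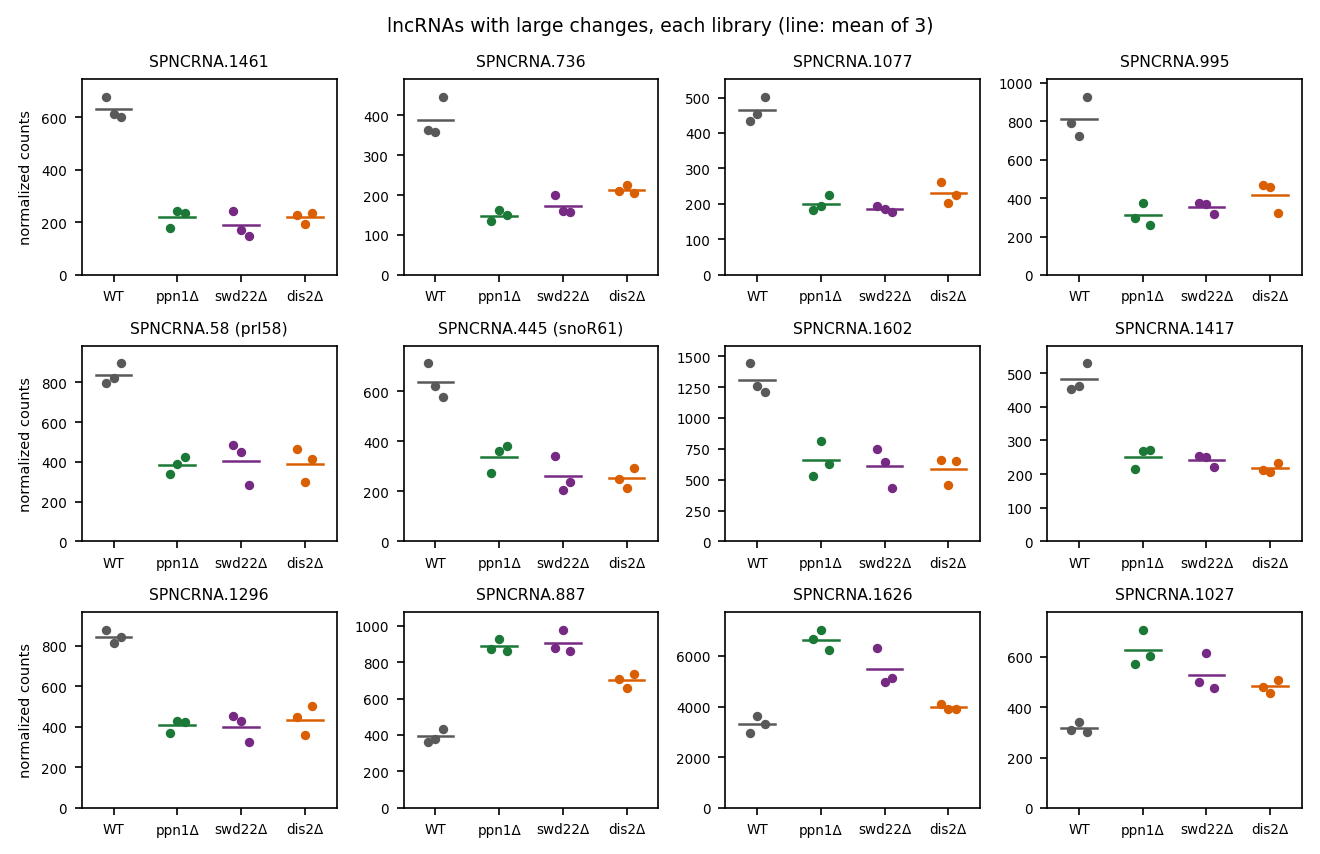
Normalized counts (linear axes from 0) of 12 lncRNAs in each library of the 4 strains; points are libraries and lines the mean of 3. In 9 of the panels (SPNCRNA.1461 to SPNCRNA.1296) every wild-type point lies above every deletion point, and in the last 3 (SPNCRNA.887, SPNCRNA.1626 and SPNCRNA.1027) every wild-type point lies below.

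The 95 antisense lncRNAs were then set beside the genes they overlap, the gene with the longest overlap being taken where there were several. In 92 pairs both transcripts could be tested. As a description across pairs, which share the same libraries and reads of the same loci, Pearson's r of the log2 fold changes was -0.078, -0.063 and -0.062, and Spearman's rho -0.068, -0.02 and -0.107. Both transcripts were called in 26, 23 and 23 pairs, and in 15, 13 and 14 of these the directions were opposite. Over all pairs, then, a change of the lncRNA went with no common direction of the gene. Opposite pairs included those at *slx4* and *fmp40* and SPNCRNA.1417, antisense to 96.2% of *meu18*: its 453 to 529 normalized counts in wild-type became 215 to 272, 220 to 255 and 206 to 233, and *meu18* went from 370 to 397 to 555 to 623, 545 to 704 and 482 to 511. The log2 fold changes were -0.93, -0.99 and -1.15 for the lncRNA and 0.65, 0.71 and 0.39 for the gene, all called. SPNCRNA.1236 had -0.72, -0.71 and -0.66, while *eaf1*, a gene for a transcription elongation factor that it overlaps by 111 bases, had 0.63, 0.62 and 0.81. SPNCRNA.716 covers 98.0% of SPAC56F8.12, had -0.81, -0.62 and -0.56, and that gene went from 1.91 to 3.04 normalized counts in wild-type to 28 to 34, 23 to 35 and 14 to 22.

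Other pairs moved in the same direction, though the genes of the 2 named here were not called in every deletion. SPNCRNA.1397 covers all of *num1*, a gene for a factor that anchors dynein to the cell cortex. The lncRNA had 661, 629 and 604 normalized counts in wild-type, against 340, 448 and 330 for *ppn1*Δ, 373, 523 and 392 for *swd22*Δ, and 241, 203 and 241 for *dis2*Δ, with log2 fold changes of -0.77, -0.55 and -1.46. *num1* had -0.60, -0.57 and -1.24, of which that in *dis2*Δ was called. The lncRNA was lower in *dis2*Δ than in *ppn1*Δ by -0.70 ± 0.14 (adjusted p = 0.00093) and than in *swd22*Δ by -0.91 ± 0.14 (adjusted p = 0.00013). SPNCRNA.624 had -1.09, -0.85 and -0.55, with SPAC24B11.14 on the other strand at -0.67, -0.55 and -0.13, the last not called. Among the genes with a meiotic label 14 could be tested, and 9, 8 and 4 of them were higher with 0 lower, where 24.3%, 19.3% and 19.3% of all loci were higher and 25.2%, 20.6% and 21.8% lower; of the 15 lncRNAs opposite such genes, 3, 2 and 2 were higher and 6, 2 and 4 lower.

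**Figure D4:**
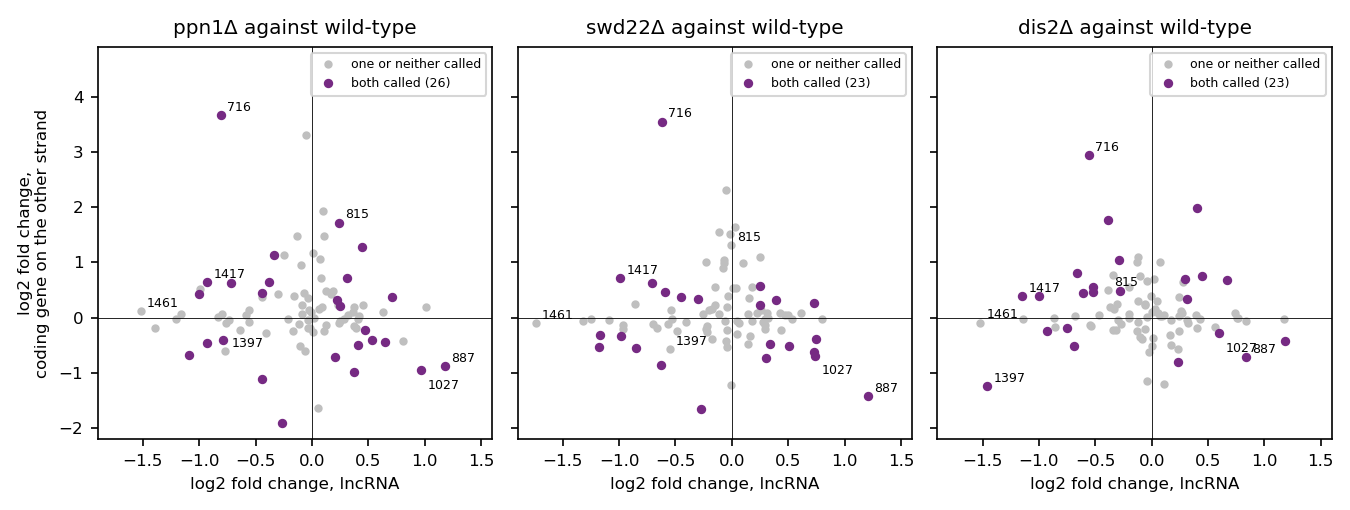
Log2 fold change against wild-type of the antisense lncRNA (horizontal) and of the coding gene on the other strand (vertical) in 92 pairs, for each deletion. Purple points are pairs in which both were called (26, 23 and 23), and numbers name lncRNAs by the digits of their SPNCRNA ID. The points spread over all 4 quadrants, with SPNCRNA.887, SPNCRNA.1027 and SPNCRNA.1417 in those of opposite direction and SPNCRNA.1397 in that of a shared fall; the gene beside SPNCRNA.716 had 1.91 to 3.04 normalized counts in wild-type.

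The letters TGACGT, named above for prl53, also stood near the start of 6 lncRNAs past 2-fold in some deletion. The sites, the first 3 of which lie in exons of coding genes, are shown on the transcript strand in windows of 26 bases; TGACGT or its reverse complement is in capitals, and the 2 overlapping matches of SPNCRNA.995 form TGACGTCA. A match is a run of letters in the genome and no more.
SPNCRNA.887, chrI:3116929-3116954, 102 bases before the start: cctcatatgcACGTCAgtcaccgaaa
SPNCRNA.1626, chrII:3631213-3631238, 92 bases before: aacgacctcaACGTCAaatgtgctac
SPNCRNA.763, chrI:1813312-1813337, 117 bases before: aacaccggaaACGTCAatgccacgtc
SPNCRNA.1461, chrII:1756228-1756253, 187 bases before: acttttccaaACGTCAattctaacag
SPNCRNA.995, chrI:4532534-4532559, 63 bases before: aaaatagctcTGACGTCAatgctata
SPNCRNA.1397, chrII:901625-901650, 235 bases before: gttaattatgTGACGTtttcagtttt

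The first 3 of these lncRNAs rose and the last 3 fell. Among all 15 lncRNAs with TGACGT in this window, 5 were higher and 5 lower in *ppn1*Δ, 4 and 5 in *swd22*Δ, and 4 and 7 in *dis2*Δ, beside 24.3% and 25.2%, 19.3% and 20.6%, and 19.3% and 21.8% of all loci.

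The deletion strains were also compared with each other, a comparison whose libraries played no part in choosing the lncRNAs. *swd22*Δ and *ppn1*Δ differed in few: 3 of 124 (2.42%) were higher in *swd22*Δ, where 5.71% of all loci were, and 1 (0.806%) was lower, where 1.29% were. Past 2-fold 0 differed (background 0.0491%); at an adjusted p of 0.05 or below without the fold rule, the 4 called were SPNCRNA.1471 (0.57), SPNCRNA.771 (0.50) and SPNCRNA.1690 (0.24), all higher, and SPNCRNA.304 (-0.45), lower. Of these, SPNCRNA.771 lost its call without *ppn1*Δ replicate 2 (0.42) or *swd22*Δ replicate 1 (0.47), SPNCRNA.304 without *ppn1*Δ replicate 3 (-0.33) or *swd22*Δ replicates 1 (-0.43) or 3 (-0.42), and SPNCRNA.1690 (0.20 to 0.27) without wild-type replicates 1 or 3, any replicate of *ppn1*Δ, *swd22*Δ replicates 1 or 3, or *dis2*Δ replicates 1 or 2. The count of higher calls then ran from 1 to 3 and that of lower calls from 0 to 3, and without *ppn1*Δ replicate 1 there was 1 past 2-fold. In 113 of the 124 the fitted difference lay within 0.25 on the log2 scale.

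*dis2*Δ stood further apart. Against *ppn1*Δ, 27 lncRNAs (21.8%) were higher where 16.1% of all loci were, 23 (18.5%) were lower where 12.9% were, and 3 were past 2-fold (background 1.65%). Against *swd22*Δ, 25 (20.2%) were higher where 9.74% were, 12 (9.68%) were lower where 8.82% were, and 1 was past 2-fold (1.29%). The lower counts rested partly on *dis2*Δ replicate 2, without which they were 15 and 6, and on *swd22*Δ replicate 1, without which the second was 8 and 2 lncRNAs were past 2-fold. The 3 past 2-fold became 2 wherever SPNCRNA.1115, described last, lost its call. With lncRNAs chosen on all 12 libraries, 16.2% were higher and 23.8% lower than in *ppn1*Δ, and 16.9% and 14.6% than in *swd22*Δ. With the 32 lncRNAs of 2000 or more wild-type counts, the balance turned: 6.25% were higher and 18.8% lower than in *ppn1*Δ, and 6.25% and 15.6% than in *swd22*Δ.

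prl53 was the most abundant lncRNA to differ. *ppn1*Δ cells had 86452, 88064 and 79672 normalized counts, *swd22*Δ cells 85865, 84484 and 80544, and *dis2*Δ cells 62082, 60068 and 57895, so that *dis2*Δ lay below the others without overlap. The difference was -0.50 ± 0.07 to *ppn1*Δ (adjusted p = 1.7e-05, edgeR) and -0.48 ± 0.07 to *swd22*Δ (5.8e-05), and against wild-type the log2 fold changes were 0.11, 0.09 and -0.39. The share of all counts that the 124 lncRNAs took moved with it and stood at 0.763% ± 0.0109 (SD, n = 3) in wild-type and at 0.817% ± 0.0285, 0.77% ± 0.0491 and 0.649% ± 0.0202 in the deletions. By a two-sided exact permutation test *dis2*Δ differed from *ppn1*Δ with p = 0.1 and from *swd22*Δ with p = 0.1, the smallest that 3 libraries against 3 allow, and *swd22*Δ from *ppn1*Δ with p = 0.3. Without prl53 the shares were 0.391%, 0.393%, 0.368% and 0.365%, and the same exact tests gave p = 0.3, 0.6 and 0.3.

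SPNCRNA.1133 (chrIII:351210-353119, minus strand), divergent from *duc1* with a gap of 328 bases, moved in different directions in the deletions. It had 316, 320 and 289 normalized counts in wild-type. The deletions had 137, 131 and 149 (*ppn1*Δ), 183, 165 and 131 (*swd22*Δ) and 368, 399 and 463 (*dis2*Δ). *ppn1*Δ and *swd22*Δ libraries were all below wild-type and *dis2*Δ libraries all above, and *dis2*Δ exceeded *ppn1*Δ by 1.56 ± 0.13 (adjusted p = 2.6e-08, edgeR) and *swd22*Δ by 1.36 ± 0.13 (2.7e-07). *duc1* had log2 fold changes of -0.17, -0.08 and -0.18 against wild-type, the first and last of them called, and no difference between deletions was called. The sequence around the start of the lncRNA, chrIII:353070-353369, is shown on the transcript strand because no other abundant lncRNA differed as much between deletions; capitals are the first 50 transcribed bases, and none of the 3 motifs searched above is in it.
SPNCRNA.1133, 250 bases before to 50 after the start: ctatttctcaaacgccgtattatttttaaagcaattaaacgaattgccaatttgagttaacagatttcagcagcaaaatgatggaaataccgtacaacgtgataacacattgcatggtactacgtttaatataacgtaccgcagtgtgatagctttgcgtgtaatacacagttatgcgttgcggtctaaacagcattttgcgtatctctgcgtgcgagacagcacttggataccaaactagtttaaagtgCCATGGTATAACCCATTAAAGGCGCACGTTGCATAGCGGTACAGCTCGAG

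SPNCRNA.1571, which overlaps 5.5% of the ubiquitin-conjugating enzyme gene *ubc1*, was also highest in *dis2*Δ among the deletions, without passing wild-type. It had 316, 342 and 374 normalized counts in wild-type, against 177, 164 and 123 for *ppn1*Δ, 156, 136 and 143 for *swd22*Δ, and 270, 288 and 274 for *dis2*Δ, and *dis2*Δ exceeded *ppn1*Δ by 0.85 ± 0.13 (adjusted p = 6.3e-05) and *swd22*Δ by 0.93 ± 0.13 (5.6e-05). In others *dis2*Δ was above all strains. SPNCRNA.1471, which covers all of the F-box gene *pof9*, had 565, 531 and 544 in wild-type, against 611, 464 and 500 for *ppn1*Δ, 813, 667 and 864 for *swd22*Δ, and 1231, 1350 and 1125 for *dis2*Δ, and *dis2*Δ exceeded *ppn1*Δ by 1.23 ± 0.11 (adjusted p = 7e-08) and *swd22*Δ by 0.66 ± 0.11 (0.00023). Its levels formed 3 steps, with wild-type and *ppn1*Δ at the bottom, whereas *pof9* had -0.61, -0.52 and -0.43 against wild-type, all called, and no called difference between deletions. SPNCRNA.763, which covers all of *sgt1*, had 513 to 575 in wild-type and 641 to 769, 706 to 838 and 1060 to 1289 in the deletions, with *dis2*Δ above *ppn1*Δ by 0.80 ± 0.10 and above *swd22*Δ by 0.67 ± 0.10. *sgt1* was at 241 to 366 in all libraries and was not called in any comparison. SPNCRNA.815, antisense to *mug68*, was lowest in *dis2*Δ (666 to 793, against 1035 to 1259 in *ppn1*Δ), a difference of -0.63 ± 0.09 (adjusted p = 2.9e-05).

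SPNCRNA.1115 (chrIII:170340-174289, plus strand), which overlaps SPCC1235.01 on the same strand, had the lowest fitted values of the 124 in *dis2*Δ and the widest spread between libraries. It had 316, 346 and 300 normalized counts in wild-type, against 96, 259 and 311 for *ppn1*Δ, 160, 90 and 53 for *swd22*Δ, and 55, 90 and 91 for *dis2*Δ. The *ppn1*Δ libraries reached from the level of *dis2*Δ to that of wild-type. Against wild-type the log2 fold changes were -0.53 ± 0.43 (not called), -1.66 ± 0.47 (adjusted p = 0.02) and -2.04 ± 0.48 (adjusted p = 0.0089, edgeR), and *dis2*Δ lay below *ppn1*Δ by -1.51 ± 0.49 (adjusted p = 0.048). The call in *swd22*Δ was lost without wild-type replicates 1 or 2 or *swd22*Δ replicates 2 or 3 (-1.67, -1.60, -1.58 and -1.37, with adjusted p from 0.052 to 0.067), and that between *dis2*Δ and *ppn1*Δ under 13 of the alternatives, among them without any replicate of wild-type or *dis2*Δ, *ppn1*Δ replicates 2 or 3 or *swd22*Δ replicate 2 (-1.63 to -1.16), with adjusted p from 0.052 to 0.15.

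**Figure D5:**
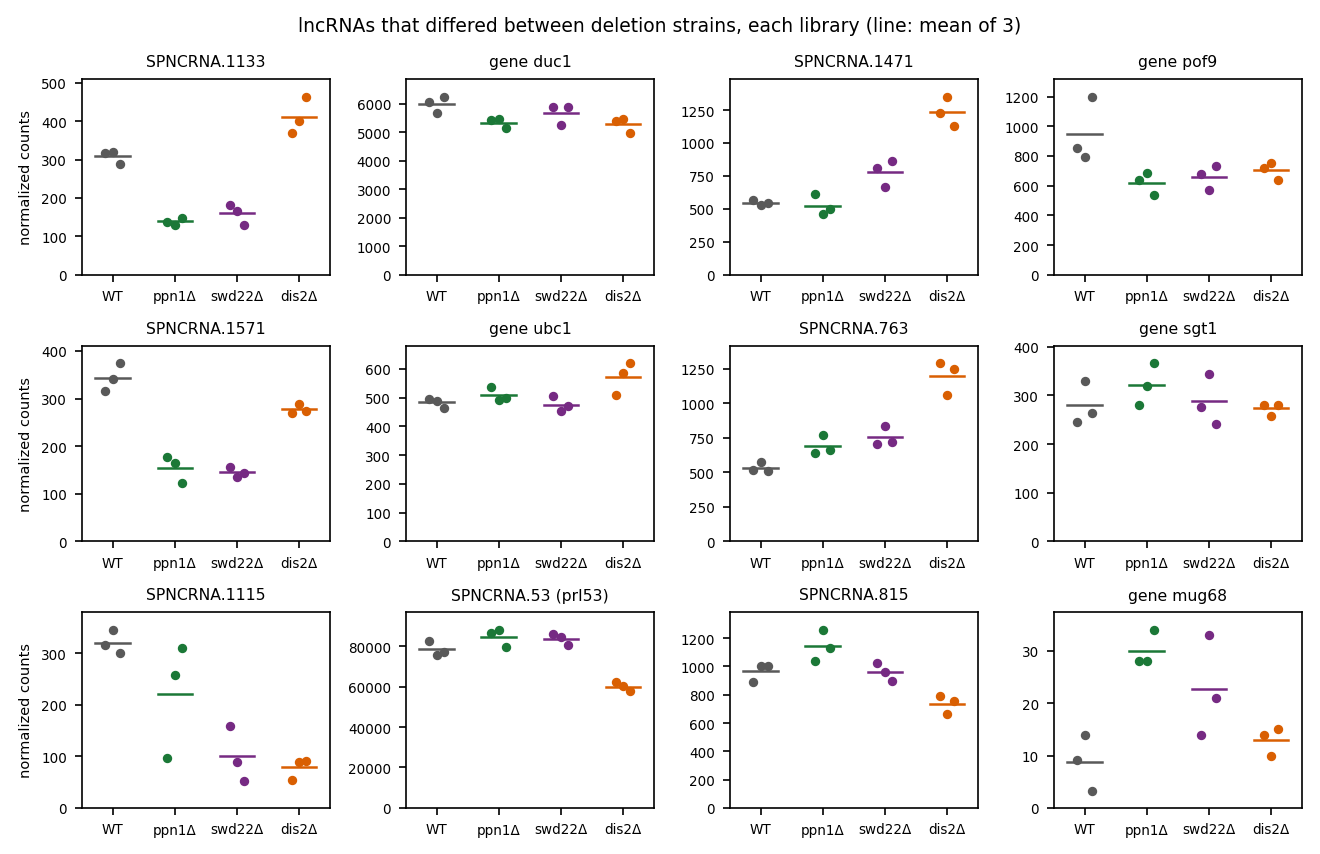
Normalized counts (linear axes from 0) in each library of the 4 strains for 7 lncRNAs and, in panels headed gene, 5 coding genes beside them; points are libraries and lines the mean of 3. SPNCRNA.1133, SPNCRNA.1471 and SPNCRNA.763 are highest in *dis2*Δ and prl53 is lowest there, while the *ppn1*Δ points of SPNCRNA.1115 run from 96 to 311.

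Of a list of 22 genes for RNA decay and transcription termination (subunits and partners of the nuclear exosome, the Mmi1 system, the 5'-exonucleases and termination factors), all 22 were tested. In *ppn1*Δ 4 were higher and 5 lower, in *swd22*Δ 2 and 4, and in *dis2*Δ 3 and 5, with 0 past 2-fold. Over all loci the shares were 24.3% and 25.2%, 19.3% and 20.6%, and 19.3% and 21.8%. Among them *mmi1*, which encodes the RNA-binding protein that recognizes TNAAAC motifs, had log2 fold changes of -0.61, -0.45 and -0.53, and *exo2*, which encodes the cytoplasmic 5'-exonuclease, had -0.43, -0.22 and -0.16, all called. In the other direction, *ctr1* had 0.66, 0.55 and 0.46, the last not called. *erh1* had 0.29, 0.22 and 0.34, called in *ppn1*Δ and *dis2*Δ. Also called higher in some deletion were *mtl1*, *pcf11*, *rmn1* and *din1*, and called lower *dis3*, *red5*, *seb1* and *pab2*. Their part in the changes of the lncRNAs was not tested.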

How the data were processed

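Poly(A)+ RNA of 4 strains was sequenced in 12 libraries. The authors mapped stranded paired-end reads of 51 bases with HISAT2 2.1.0, counted them with HTSeq 0.10.0 on exons of the PomBase annotation of ASM294v2 and deposited raw counts per locus; the strand setting is not given in the sources used here. The table had 6987 entries for 6986 IDs, since 1 ID had 2 entries, which were summed. The lncRNAs, gene lists and tests were chosen with earlier results of these data known. Of 1524 lncRNA loci, 1 is not reported here.

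Under R 4.3.3, edgeR 4.0.16 kept 6110 loci by filterByExpr, scaled libraries by TMM and fitted the 12 libraries together by robust quasi-likelihood, with p-values adjusted over the loci kept. Depth was 17616688 to 23435936 counts, and near 100 counts counting noise adds to the spread between replicates (common dispersion 0.005626). Shares were compared by exact permutation. Levels per length used ASM294v3 exon lengths; positions and sequences are from ASM294v3 (RefSeq), with no conversion. Named were the 10 lncRNAs with most wild-type counts and the 10 highest per length, those with a common name, the 5 largest rises and falls per comparison among those called, all past 2-fold, those at the threshold, their coding neighbors, and the deleted and decay genes; other pairs were chosen after their values were seen. Alternatives were DESeq2 1.42.0, other scaling factors, no low-count filter, the replicate number as a block, the compared strains alone, other choices of lncRNAs and each library left out. Fits were tested on simulated data.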

Additional observations from a re-analysis of the deposited data

Results flagged for a closer look

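The deletions differed from each other by more than 2-fold in the direct test for 3 of the 124 lncRNAs. SPNCRNA.1133 was higher in *dis2*Δ than in *ppn1*Δ by 1.56 and than in *swd22*Δ by 1.36 on the log2 scale. SPNCRNA.1471 was higher in *dis2*Δ than in *ppn1*Δ by 1.23. SPNCRNA.1115 was lower in *dis2*Δ than in *ppn1*Δ, with a log2 difference of -1.51, and this call was lost under 13 of the alternatives.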

How the results depend on the processing

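Of 67 named differences under 1206 alternatives in all, 1168 kept their call, 38 lost it and 0 reversed; those that lost it concerned SPNCRNA.1115, SPNCRNA.304, SPNCRNA.771, SPNCRNA.1690, SPNCRNA.609 and SPNCRNA.1143. Choosing lncRNAs on all 12 libraries gave 36.2% higher and 23.8% lower in *ppn1*Δ, 32.3% and 23.8% in *swd22*Δ and 34.6% higher in *dis2*Δ against wild-type, 1.54% higher and 1.54% lower in *swd22*Δ against *ppn1*Δ, and 14.6% lower and 2.31% past 2-fold in *dis2*Δ against *swd22*Δ. Choosing on 2000 or more wild-type counts left 32 loci: 53.1% were lower in *dis2*Δ against wild-type, 0% lower in *swd22*Δ against *ppn1*Δ, 6.25% higher and 0% past 2-fold in *dis2*Δ against *ppn1*Δ, and 6.25% higher, 15.6% lower and 0% past 2-fold in *dis2*Δ against *swd22*Δ. In *swd22*Δ against *ppn1*Δ, 1.61% were higher with relative log expression factors or the compared strains alone and 0.806% with library size only, and 1.61% were lower with no filter, DESeq2 or the replicate block. In *dis2*Δ against *ppn1*Δ, 1.61% were past 2-fold with relative log expression factors, no filter, the replicate block or the compared strains alone. The cause of these moves was not tested, except that fewer loci entered the smaller choice.

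Replicate numbers did not pair the samples: correlations of deviations between libraries of the same number ran from -0.307 to 0.261 (18 pairs, 5 over 0.1), and of other numbers from -0.383 to 0.446.

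Without prl53 the difference in share of counts was 0.00211 percentage points for *ppn1*Δ and -0.026 for *dis2*Δ against wild-type, -0.0281 for *dis2*Δ against *ppn1*Δ and -0.00333 against *swd22*Δ.

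Leaving out each library in turn, the percent higher, lower and past 2-fold ran from 0.806 to 2.42, 0 to 2.42 and 0 to 0.806 in *swd22*Δ against *ppn1*Δ, from 18.5 to 24.2, 12.1 to 19.4 and 1.61 to 2.42 in *dis2*Δ against *ppn1*Δ, and from 15.3 to 21.0, 4.84 to 11.3 and 0.806 to 1.61 in *dis2*Δ against *swd22*Δ.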
